A study of Saccharomyces cerevisiae with 2 samples.

Results

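The core of the RNA exosome was followed at the mRNA level through the genes of its 10 subunits in *S. cerevisiae*, among 5775 nuclear ORFs and 9633 transcripts listed in all. The members were chosen by name, as *RRP4*, *RRP40*, *CSL4*, *SKI6*, *RRP42*, *RRP43*, *RRP45*, *RRP46*, *MTR3* and *DIS3*, and all 10 were found with reads in both libraries. RNA-seq was done on 1 *xrn1*∆ *trf4*∆ culture and 1 *trf4*∆ culture of BY4741, each in exponential asynchronous growth in YPD. The *TRF4* deletion is thus common to both strains, and the comparison asks what differs when the 5′–3′ exoribonuclease gene *XRN1* is deleted as well. Strains that carry *TRF4* are not analysed here, and with 1 library per strain no difference below has a replicate check or a p-value.

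The exosome is a 3′–5′ RNA degradation machine that works in the nucleus and in the cytoplasm. A ring of 6 proteins related to RNase PH, inactive in yeast, forms a channel with a cap of 3 proteins that carry S1 and KH RNA-binding domains, and RNA threaded through it reaches Dis3p (Rrp44p), the nuclease at the bottom. In the nucleus the TRAMP complex, of which Trf4p is a poly(A) polymerase, tags RNAs for it. In the cytoplasm the Ski complex feeds it with mRNA while Xrn1p degrades mRNA from the other end.

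The deleted genes were examined first. *XRN1* had 111 reads in *xrn1*∆ *trf4*∆ and 7272 in *trf4*∆, and *TRF4* had 1 read and 0 reads. *URA3*, *LEU2* and *MET17*, which BY4741 lacks, were listed at 0 in both libraries. *HIS3*, of which BY4741 lacks only a part, had 1050 reads in *xrn1*∆ *trf4*∆ and 353 in *trf4*∆. The 10 members together had 14834 reads in *xrn1*∆ *trf4*∆ and 6036 in *trf4*∆, which is 0.122% and 0.0810% of reads on ORFs. Each had between 789 and 3667 reads in *xrn1*∆ *trf4*∆ and between 216 and 2140 in *trf4*∆. The unit is a density, in normalized reads per nucleotide, so that levels of different genes can be compared. Intervals are exact 95% intervals of the read numbers (Poisson for a density, Clopper-Pearson for a ratio), and cover counting error only, not the spread between cultures. The densities were scaled on total ORF reads, and amounts of RNA per cell were not measured. In bulk RNA, fewer cells that express a gene and less RNA per cell cannot be told apart. The use of strand in counting is not given in the sources used here, so reads from antisense transcripts may be included.

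Ratios are given as log2 of the density in *xrn1*∆ *trf4*∆ over that in *trf4*∆. They were above 0 for all 10 members, where 82.0% of the 5638 ORFs with reads in both libraries were above 0. A density at least 2-fold higher was called for 4 of 10 members (*MTR3*, *RRP46*, *CSL4* and *RRP40*), against 40.1% of ORFs, so the core did not stand apart from ORFs in this count. No member was at least 2-fold lower, as were 2.63% of ORFs. The median log2 ratio was 0.86 for the core and 0.78 for ORFs. *RRP4*, a cap subunit, and *DIS3*, the nuclease, had nearly equal densities in the 2 strains, with log2 ratios of 0.07 and 0.10. The other 8 lay between 0.58 (*RRP45*) and 1.35 (*MTR3*).

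The sign of 6 of these ratios depends on the scale between the libraries. Setting the median ORF density equal in both adds -0.94 to every log2 ratio and brings the core median to -0.08. Then 4 of 10 members were above 0, where 42.4% of ORFs were, and none was at least 2-fold higher, where 7.45% of ORFs were. With a trimmed mean of the ORF ratios as the reference, which adds -0.78, 6 of 10 were above 0, where 50.04% of ORFs were. Distances between members, and from each member to the ORF median, are the same under any scale. On that footing *MTR3*, *RRP46*, *CSL4* and *RRP40* lay above the ORF median by more than their counting intervals. *DIS3*, *RRP4* and *RRP45* lay below it in the same sense, while the intervals of *SKI6*, *RRP43* and *RRP42* held the ORF median. The share of ORFs whose own intervals leave out the ORF median was not counted. These positions therefore describe single members and do not set the core apart from ORFs.

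**Figure D1:**
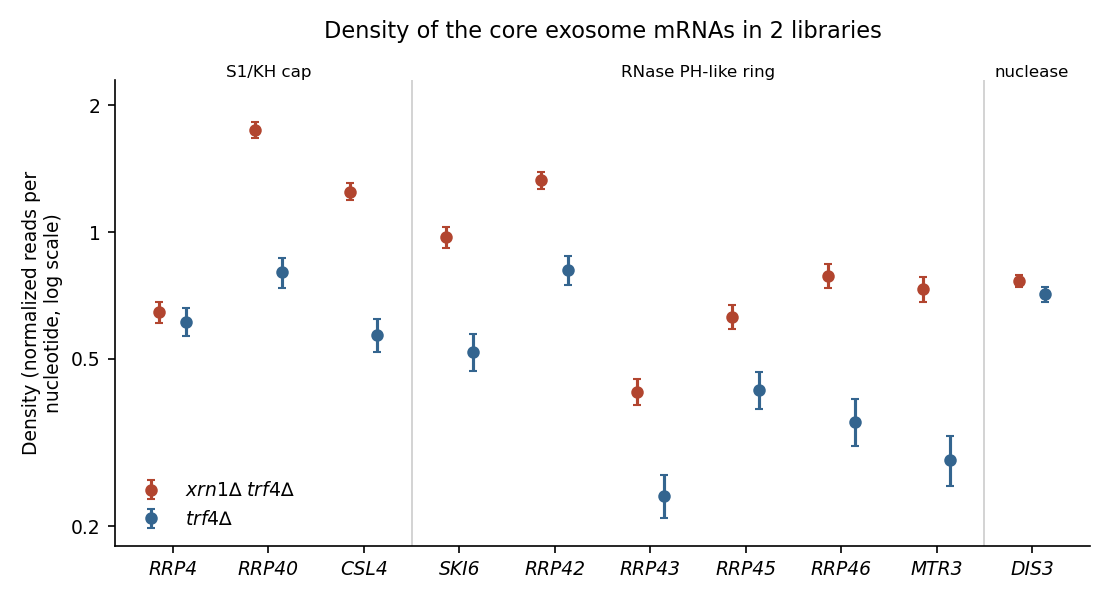
Density of each core exosome mRNA (y axis, normalized reads per nucleotide, log scale) in *xrn1*∆ *trf4*∆ (red, left) and *trf4*∆ (blue, right), 1 library each, grouped by place in the complex, with exact Poisson 95% intervals as bars. *RRP40* was highest in *xrn1*∆ *trf4*∆ at 1.75, and the intervals of the 2 libraries overlap for *RRP4* and *DIS3* and for no other member.

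Among the 3 cap subunits, which bind the RNA at the entry of the channel, *RRP4* parted from its neighbours. *RRP4* (YHR069C, chromosome VIII of R64, 233579 to 234658, minus strand) had a density of 0.645 in *xrn1*∆ *trf4*∆ (1113 reads) and 0.613 in *trf4*∆ (662 reads). Its log2 ratio of 0.07 (95% interval -0.07 to 0.22) holds 0. *RRP40* (YOL142W, chromosome XV, 55558 to 56280, plus strand) had 1.75 (2020 reads) and 0.802 (580 reads), with a log2 ratio of 1.12 (0.99 to 1.26). *CSL4* (YNL232W, chromosome XIV, 214923 to 215801, plus strand) had 1.25 (1753 reads) and 0.569 (500 reads), with a log2 ratio of 1.13 (0.99 to 1.28). Between *CSL4* and *RRP40* the difference in log2 ratio was 0.0096, with an interval (-0.19 to 0.21) that holds 0. *RRP40* exceeded *RRP4* by 1.05 (0.85 to 1.25) in log2 ratio. In *trf4*∆ the densities of *RRP4* and *CSL4* could not be told apart by counting, whereas in *xrn1*∆ *trf4*∆ *CSL4* stood well above *RRP4*.

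The ring is built of 3 dimers, Ski6p (also Rrp41p) with Rrp45p, Rrp46p with Rrp43p, and Mtr3p with Rrp42p, and the mRNAs were read in these pairs. *SKI6* (YGR195W, chromosome VII, 888882 to 889622, plus strand) had a density of 0.974 in *xrn1*∆ *trf4*∆ (1152 reads) and 0.520 in *trf4*∆ (385 reads), with a log2 ratio of 0.91 (95% interval 0.74 to 1.08). For its partner *RRP45* (YDR280W, chromosome IV, 1020747 to 1021664, plus strand) the densities were 0.630 (923 reads) and 0.422 (387 reads), and the log2 ratio was 0.58 (0.41 to 0.75). The ratio was higher in *SKI6* than in *RRP45* by 0.33 (0.08 to 0.57).

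*RRP46* (YGR095C, chromosome VII, 675671 to 676342, minus strand), the shortest of the 10 genes, had densities of 0.787 in *xrn1*∆ *trf4*∆ (845 reads) and 0.354 in *trf4*∆ (238 reads), a log2 ratio of 1.15 (0.94 to 1.37). *RRP43* (YCR035C, chromosome III, 191834 to 193018, minus strand) had the lowest density of the core in both libraries, 0.417 (789 reads) and 0.236 (280 reads), and a log2 ratio of 0.82 (0.62 to 1.02). *RRP46* exceeded *RRP43* by 0.33 (0.04 to 0.63) in log2 ratio. *MTR3* (YGR158C, chromosome VII, 805269 to 806021, minus strand), named for a defect in mRNA transport, had the highest log2 ratio of the core, 1.35 (1.13 to 1.57), from densities of 0.731 (879 reads) and 0.287 (216 reads). It was the only member whose whole interval lay above a log2 ratio of 1. *RRP42* (YDL111C, chromosome IV, 263313 to 264110, minus strand) had 1.33 (1693 reads) and 0.812 (648 reads), with a log2 ratio of 0.71 (0.58 to 0.84). *MTR3* exceeded *RRP42* by 0.64 (0.38 to 0.90). In each of the 3 dimers the partners thus differed in log2 ratio by more than counting error. Pairs of other ORFs were not compared in this way.

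*DIS3* (YOL021C, chromosome XV, 282421 to 285426, minus strand) encodes the subunit with 3′–5′ exonuclease and endonuclease activity. It is the longest gene of the core, with 3006 nucleotides against 1185 for the next, *RRP43*, and its ratio is therefore the most precise. Its density was 0.764 in *xrn1*∆ *trf4*∆ (3667 reads) and 0.712 in *trf4*∆ (2140 reads), with a log2 ratio of 0.10 (0.02 to 0.18). This lies 0.68 below the ORF median, and at the 21.6th percentile of ORF ratios. *RRP4* lay at the 20.4th, and *MTR3*, at the other end, at the 75.3rd.

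**Figure D2:**
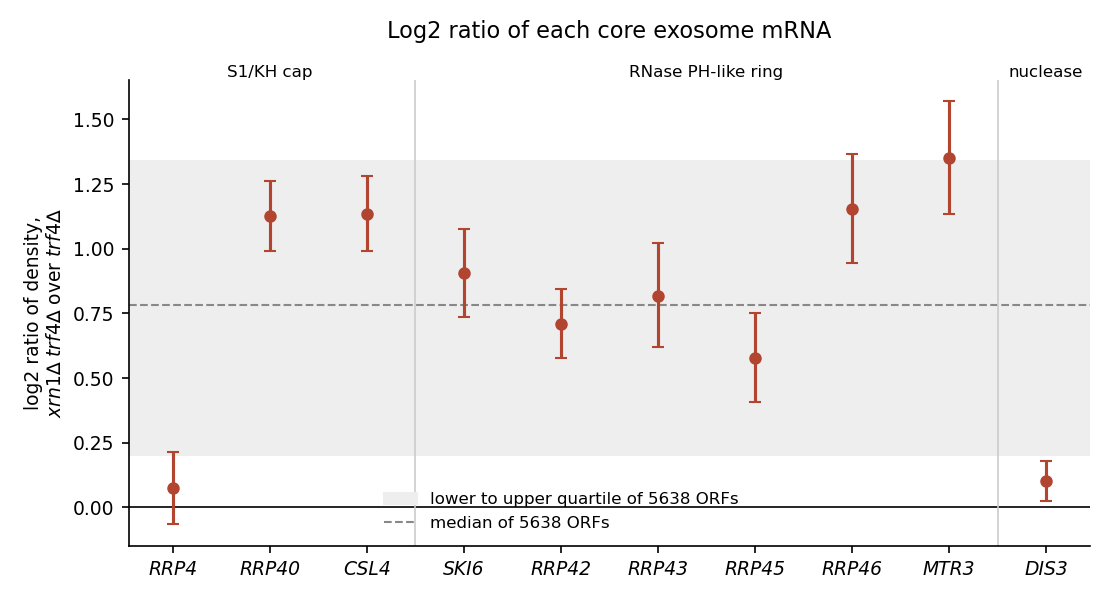
Log2 ratio of density, *xrn1*∆ *trf4*∆ over *trf4*∆, for each core exosome mRNA (y axis), grouped by place in the complex, with exact Clopper-Pearson 95% intervals as bars. The dashed line is the median of 5638 ORFs (0.78), and the grey band runs between their quartiles (0.20 to 1.34). *RRP4* and *DIS3* lie below the band and *MTR3* just above it, while the other 7 lie inside.

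The 45 pairs of members were compared by the exact conditional odds ratio of their reads, a measure that no scale between the libraries changes. The 95% intervals of 32 pairs left out 0, with no adjustment for their number. All 16 pairs of *RRP4* or *DIS3* with another member were among them, with differences in log2 ratio between 0.48 and 1.28. These 2 genes were singled out after their values were seen. Between *DIS3* and *RRP4* themselves the difference was 0.03 (-0.13 to 0.19). Of the 28 pairs among the other 8 members, 16 left out 0. How often pairs of other ORFs are apart in this way was not counted, so these counts do not set the core apart from ORFs. The SD of the log2 ratio over the 10 members was 0.44, against 0.80 over the 2819 ORFs in the groups of mean density in which the members fall, and 0.89 over all ORFs.

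The make-up of the summed core mRNA density differed between the strains. *RRP4* took 6.96% of this sum in *xrn1*∆ *trf4*∆ and 11.5% in *trf4*∆, and *DIS3* took 8.24% and 13.4%. *RRP40* took 18.9% and 15.1%, *CSL4* 13.5% and 10.7%, and *MTR3* 7.88% and 5.39%. *RRP43* had the smallest share in both, 4.50% and 4.44%.

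The subunits occur in equal numbers in the complex, but their mRNA levels spread over 4.20-fold in *xrn1*∆ *trf4*∆ and 3.44-fold in *trf4*∆. This is narrow beside all ORFs, which reach down to densities near 0: the SD of log2 density was 0.61 and 0.62 over the members, and 1.99 and 2.21 over ORFs. Over the 12 RNA polymerase II subunits described below it was 0.78 and 0.81. It was 1.22 and 1.24 over the Ski complex with *SKI7*, and 1.43 and 1.47 over 10 nuclear cofactors. The median member had 0.776 reads per nucleotide in *xrn1*∆ *trf4*∆ and 0.544 in *trf4*∆, above the ORF medians of 0.480 and 0.249. From high to low, the order in *xrn1*∆ *trf4*∆ was *RRP40*, *RRP42*, *CSL4*, *SKI6*, *RRP46*, *DIS3*, *MTR3*, *RRP4*, *RRP45* and *RRP43*. In this order *RRP42* and *CSL4*, *RRP46* and *DIS3*, *DIS3* and *MTR3*, and *RRP4* and *RRP45* are neighbours not apart by counting error. In *trf4*∆ the order was *RRP42*, *RRP40*, *DIS3*, *RRP4*, *CSL4*, *SKI6*, *RRP45*, *RRP46*, *MTR3* and *RRP43*. There *RRP42* and *RRP40*, *RRP4* and *CSL4*, and *CSL4* and *SKI6* were not apart. *DIS3* and *RRP4* ranked 6 and 8 in *xrn1*∆ *trf4*∆, against 3 and 4 in *trf4*∆. Outside the gene lists used here, the ORFs nearest to the median densities of the core in the 2 libraries were *SEC65*, *SMF1* and YOR292C, at Euclidean distances of 0.025, 0.026 and 0.033 on the log2 scale.

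Log2 ratios of ORFs varied with their level and with gene length, and the members were set against both. When ORFs were split by mean log2 density into 10 groups, the members fell into groups 5 to 9, counted from the lowest, in which the group medians run down from 0.99 to 0.33. Against the median of its own group, *RRP40* was higher by 0.79, *CSL4* by 0.56 and *MTR3* by 0.47, whereas *RRP4* had a difference of -0.69 and *DIS3* one of -0.47. In all, 6 of 10 members were above the median of their group. A median splits the ORFs of its group evenly by definition, so this count does not set the core apart from ORFs. Over the 10 members, Spearman's rho of length and log2 ratio was -0.72, -0.65 without *DIS3* and -0.57 without *DIS3* and *RRP4*. Over 5633 ORFs it was -0.15. These are descriptions across genes of the same 2 libraries, and genes are not replicates. In the longest of 5 length groups of ORFs, which holds *DIS3*, the median log2 ratio was 0.58 and 26.0% of ORFs were at least 2-fold higher. In the group of 662 to 1026 nucleotides, which holds 7 members, the values were 0.87 and 44.9%. *RRP4*, at 1080 nucleotides, lies in a group with a median of 0.79, together with *RRP43*. The part of length in the ratios was not tested.

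**Figure D3:**
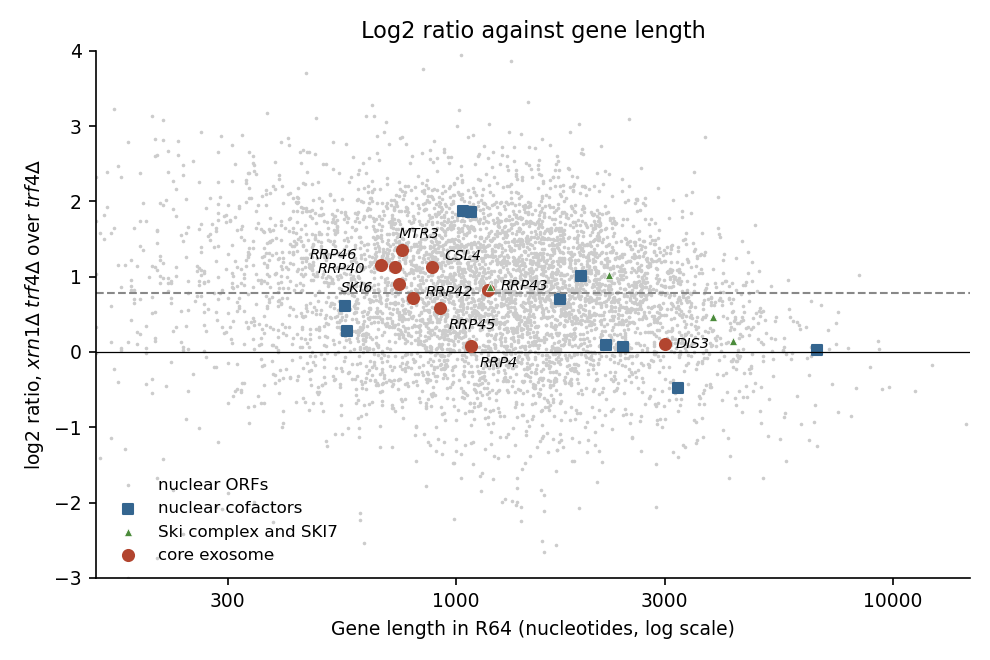
Log2 ratio of density, *xrn1*∆ *trf4*∆ over *trf4*∆ (y axis), against gene length in R64 (x axis, nucleotides, log scale). Core exosome genes are red and labelled, nuclear cofactors are blue squares, Ski complex genes with *SKI7* green triangles and the other nuclear ORFs grey, 53 of which lie outside the axes. The dashed line is the ORF median of 0.78, with 7 members between 662 and 1026 nucleotides and *DIS3* at 3006.

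All positions of 50 nt in the 10 genes, the length of a read, are unique in the R64 genome, and none of the genes overlaps another gene of that annotation. This count takes exact copies only, and copies with mismatches were not searched. The nearest annotated gene lies 87 bases (*TRM3*, beside *RRP42*) to 326 bases (*RNH202*, beside *RRP45*) away.

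The 300 bases before each start codon were searched in R64 for cores of 2 motifs known from ribosome biogenesis genes of budding yeast, on both strands. The PAC core (GATGAG) was present in 6 of 10 members and in 18.8% of 5769 ORFs. The RRPE core (AAAAATTT) was present in 6 of the 9 members other than *MTR3* and 15.6% of ORFs, and both together in 4 of these 9 and 5.81% of ORFs. The letters of the 2 cores cannot overlap. These 4 were *RRP4*, *RRP40*, *CSL4* and *DIS3*. For *RRP4* the RRPE match lies inside the neighbouring gene *TRM5*. A match is a description of letters and not of a bound factor. The windows below are from RefSeq's R64 genome, 5′ to 3′ on the strand of the gene, with the PAC core or its reverse complement (CTCATC) or the RRPE core in capitals. The PAC windows are shown because the same letters occur at both ends of the order of log2 ratios, and the *DIS3* RRPE window because it lies beside the PAC match.
*MTR3* PAC, chrVII:806200-806229, minus strand, 196 bases before the start codon: tttttttttcacGATGAGatgagatcgcta
*RRP4* PAC, chrVIII:234760-234789, minus strand, 119 bases before the start codon: tatggattgagcGATGAGgtgaaaaaaaaa
*DIS3* PAC in reverse complement, chrXV:285530-285559, minus strand, 121 bases before the start codon: taggcattttctCTCATCtcagaaaaattt
*DIS3* RRPE, chrXV:285519-285548, minus strand, 111 bases before the start codon: tctcatctcagAAAAATTTtaatgtgtgtg
In *MTR3* a further GATGAG begins 191 bases before the start codon and shares a base with the first. In *DIS3* the 2 windows overlap, and the matches lie 10 bases apart from first base to first base.

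Genes of proteins that work with the exosome core were described beside it. Of 10 nuclear cofactors, 9 had a log2 ratio above 0, where 82.0% of ORFs did, and 3 were at least 2-fold higher, where 40.1% of ORFs were, with a median of 0.45. With the median ORF density set equal in both libraries, 3 of the 10 were above 0 and 7 below, where 42.4% of ORFs were above 0. *RRP6*, the second exonuclease of the nuclear exosome, had densities of 0.481 in *xrn1*∆ *trf4*∆ and 0.449 in *trf4*∆. Its log2 ratio of 0.10 (-0.02 to 0.21) and that of *DIS3* differed by 0.0040 (-0.13 to 0.14, *DIS3* minus *RRP6*), an interval that holds 0. *LRP1*, whose product (Rrp47p) binds and stabilizes Rrp6p, had 0.61 (0.36 to 0.88), and *RRP6* minus *LRP1* was -0.52 (-0.80 to -0.23). Only a few pairs of this kind were compared. *MPP6*, a small RNA-binding cofactor, rests on 93 and 48 reads, with 0.28 (-0.24 to 0.81).

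The TRAMP genes spanned both ends of this list. *MTR4*, the helicase that unwinds substrates for the exosome, was the only cofactor of this list with a log2 ratio below 0 on the deposited scale, with densities of 0.594 in *xrn1*∆ *trf4*∆ and 0.831 in *trf4*∆ and a log2 ratio of -0.49 (-0.56 to -0.41). *AIR1* and *AIR2*, a pair of zinc knuckle RNA-binding proteins of TRAMP, had 0.935 and 0.992 in *xrn1*∆ *trf4*∆, and 0.259 and 0.271 in *trf4*∆. Their log2 ratios were 1.85 (1.67 to 2.04) and 1.87 (1.69 to 2.06). *AIR1* exceeded *MTR4* by 2.34 (2.14 to 2.54) under any scale, and *DIS3* exceeded *MTR4* by 0.59 (0.48 to 0.70). *MTR4* is the lowest of this list and *AIR1* is near its top, so these differences are descriptions and not tests. *TRF5*, the paralog of the deleted *TRF4*, had 0.185 and 0.0918, with a log2 ratio of 1.01 (0.77 to 1.27). Every position of 50 nt in *AIR1*, *AIR2* and *TRF5* is unique in R64.

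Of the termination factors that work with TRAMP, *NRD1* had the highest level of the list, 3.90 in *xrn1*∆ *trf4*∆ and 2.39 in *trf4*∆, with a log2 ratio of 0.71 (0.66 to 0.76). Its partner *NAB3*, an RNA-binding protein, had 0.07 (-0.01 to 0.15), and the helicase gene *SEN1* 0.03 (-0.04 to 0.10). On the cytoplasmic side, the Ski complex and *SKI7* had a median of 0.66. All 4 genes were above 0 and 1 was at least 2-fold higher on the deposited scale, where 82.0% and 40.1% of ORFs were. With the median ORF density set equal, 1 of 4 was above 0, where 42.4% of ORFs were. *SKI7*, which bridges the complex to the exosome, had the highest log2 ratio, 1.02 (0.77 to 1.28), from densities of 0.153 and 0.0753. *SKI8*, a WD repeat protein, had 0.86 (0.74 to 0.99), the helicase gene *SKI2* 0.46 (0.35 to 0.57) and *SKI3*, a scaffold, 0.15 (0.03 to 0.26). The SD of the log2 ratio was 0.40 over these 4 genes, 0.44 over the core and 0.78 over the nuclear cofactors. Whether the lists differ cannot be tested with 1 library per strain.

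**Figure D4:**
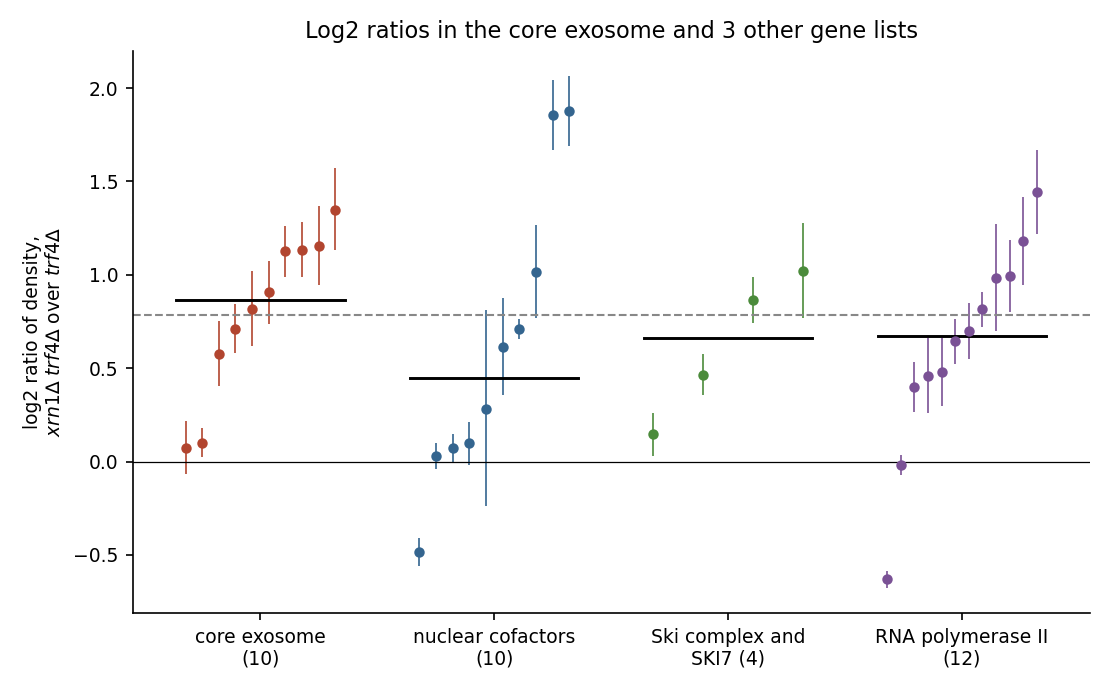
Log2 ratio of density, *xrn1*∆ *trf4*∆ over *trf4*∆ (y axis), for each gene of 4 lists, sorted within a list, with exact Clopper-Pearson 95% intervals as bars. Black lines are list medians (0.86 for the core, 0.45 for nuclear cofactors, 0.66 for the Ski complex with *SKI7* and 0.67 for RNA polymerase II), and the dashed line is the ORF median of 0.78.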

How the data were processed

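Total RNA was rRNA-depleted, and libraries were sequenced on a SOLiD instrument as 50 nt reads. The authors aligned them to S288c with Bowtie 0.12.7, kept uniquely placed reads and deposited a density signal per transcript, in reads per nucleotide normalized on total ORF reads. The annotation release is not given in the sources used here. Densities multiplied by gene lengths of R64 (RefSeq) gave whole reads within 0.01 for 5738 of 5770 ORFs (99.4%), all 10 members included, with 1 read worth 0.626 in *xrn1*∆ *trf4*∆ and 1 in *trf4*∆. These ORFs held 12121664 and 7455598 reads, with a median of 978.5 and 316 per ORF, and the number of reads sets the precision.

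Log2 ratios of density were computed without a pseudocount. With 1 library per strain no test was run, and "called" means at least 2-fold. Reads without molecular identifiers are not independent molecules. Alternatives were pseudocounts of 0.01 and 0.1, 3 other scales, a mean density of at least 0.05, other summaries and other calls. Named genes were the members, the deleted genes, the cofactor and Ski lists, the highest and lowest RNA polymerase II subunit, and the 3 ORFs nearest to the core. The members and lists were chosen with earlier results of these data known. Functions were tested on simulated data. Software was SciPy 1.17.1, pandas 2.3.3, NumPy 2.4.6 and matplotlib 3.10.9 under Python 3.11.15. A further motif window is not reported here.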

Additional observations from a re-analysis of the deposited data

How the results depend on the processing

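Of 72 values under the alternatives, 41 stayed within the interval of the main value or, for a count, within 1.5 times of it. For the core median this was not a counting interval. It ran from the log2 ratio of *DIS3* to that of *RRP46* (0.10 to 1.15), in the order of the members. It is a spread over genes, which are not replicates, and a wide limit. The pseudocount of 0.01, the mean of log2 ratios and the ratio of summed densities moved no summary of the core. The minimum mean density of 0.05 could not move one, because all 10 members lie above it. Its values are still counted among the 41. Division by the median ORF density brought the core median to -0.082, the number of members at least 2-fold higher to 0 and the number above 0 to 4 of 10. On that scale 7.45% of ORFs were at least 2-fold higher and 42.4% were above 0. The log2 ratio was then -0.87 for *RRP4*, -0.84 for *DIS3*, -0.37 for *RRP45*, -0.23 for *RRP42*, -0.13 for *RRP43* and -0.038 for *SKI6*. The trimmed mean gave 0.079 for the median, with 0 members 2-fold higher and 6 above 0, where 50.04% of ORFs were above 0. It gave -0.71 for *RRP4*, -0.68 for *DIS3*, -0.21 for *RRP45* and -0.074 for *RRP42*. Both scales are built to put a typical ORF near 0. Setting the sums of ORF densities equal moves ratios by -0.08 and kept the number at least 2-fold higher at 4. With equal sums 9 of 10 were above 0, where 79.4% of ORFs were, and *RRP4* came to -0.0080. For equal sums and for the trimmed mean, the share of ORFs at least 2-fold higher was not counted. With 1.5-fold as the call, 7 of 10 members were called, against 59.2% of ORFs, and with the whole counting interval above 2-fold 1 was, against 28.7% of 5601 ORFs. With a pseudocount of 0.1, 3 of 10 were called, against 20.8% of ORFs. No paired analysis was possible because each strain has 1 library. For the same reason no library could be left out.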

Other observations

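The 12 subunits of RNA polymerase II, another essential complex, had a median log2 ratio of 0.67, with 10 above 0 and 2 at least 2-fold higher, where 82.0% and 40.1% of ORFs were. With the median ORF density set equal, 4 of the 12 were above 0, where 42.4% of ORFs were. The lowest was *RPO21*, the largest subunit, with densities of 1.03 in *xrn1*∆ *trf4*∆ and 1.59 in *trf4*∆ and a log2 ratio of -0.63 (95% interval -0.67 to -0.59). The highest was *RPB9*, a small subunit, with 1.49 and 0.547 and a log2 ratio of 1.44 (1.22 to 1.67). Spearman's rho of length and log2 ratio was -0.73 over these 12 genes and -0.68 over the 10 nuclear cofactors, beside -0.72 over the exosome core and -0.15 over all ORFs. All values come from the same 2 libraries, and the lists were not chosen for length.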
